A study of Sebastes schlegelii with 6 samples.

Results

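The genes described here are the vitamin D hydroxylases CYP2R1, CYP27B1 and CYP24A1, the vitamin D receptor vdra, and cyp27c1, which is included by family. They were followed in liver of the Korean rockfish (Sebastes schlegelii), a marine bony fish, by RNA sequencing of 3 liver libraries of fish starved for 72 days and 3 liver libraries of fish fed over the same 72 days. Members were taken from the deposited count table by gene symbol, ignoring case and allowing a paralog letter, for cyp24a1, cyp2r1, cyp27b1, cyp27c1, vdr, gc and stc1. That gave 7 of the 19303 genes: CYP24A1, CYP27B1, cyp27c1, and a pair of genes each for CYP2R1 and vdra, called copy 1 and copy 2 below. The copy numbers are names given here, with copy 1 the gene of the pair that had more counts over all libraries. No member was found for the symbols gc (the vitamin D carrier of plasma) and stc1 (stanniocalcin 1). In all, 2 matches by letter were left out because their product names are those of unrelated proteins. The labels give organism, tissue, feeding state and duration, and no age, sex, size, strain or tank.

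Vitamin D works as a hormone only after hydroxylation at a pair of positions. A 25-hydroxylase such as CYP2R1 acts first and gives the circulating form, and the 1-alpha-hydroxylase CYP27B1 then gives calcitriol, the active hormone. CYP24A1, the 24-hydroxylase, starts the breakdown of both, and in mammals its gene is a classic target of calcitriol acting through the receptor. The receptor is a nuclear receptor that binds DNA with a retinoid X receptor. In mammals the last activating step is known mainly from kidney, whereas in bony fish the liver has been described as a site of vitamin D hydroxylation as well.

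Library totals ran from 13469708 to 14716282 counts in starved liver and from 11623356 to 13029074 counts in fed liver. Fed library 1 stood apart. Its log2 CPM values correlated with those of the other fed libraries at 0.891 and 0.876 across tested genes, against 0.951 between fed libraries 2 and 3, and its share of uniquely mapped reads that crossed a splice junction was 41.7%, against 50.7% to 53.3% in the other 5 libraries. Member calls and ratios that leaving it out changed are given with and without it. Most values for the lists of other genes are given only with it. Markers of hepatocytes, the main cell of liver, summed to between 128331 and 161187 CPM (counts scaled to library size and composition) in starved liver and between 101992 and 224243 CPM in fed liver. None of those 15 genes passed the test between groups, while 3 had an unadjusted p under 0.05, DESeq2 passed 3 and limma-voom 0. These were whole livers, so fewer cells of a type and less RNA per cell cannot be told apart. The labels do not state whether each library is a fish of its own. The p-values therefore describe variation among these libraries, part of which may be technical.

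In starved liver the breakdown enzyme CYP24A1 and receptor copy 2 were higher, and the activating enzymes CYP2R1 (copy 1) and CYP27B1 were lower. Of the 7 genes, 6 had enough counts to be tested with edgeR's quasi-likelihood test among 13338 genes. The test passed 2 of them as higher and 2 as lower at an adjusted p under 0.05. Over all tested genes 5.16% passed, 2.18% as higher and 2.98% as lower. The values of starved and fed liver did not overlap for 5 of the 6 genes, against 31.1% of all tested genes. The members were chosen with earlier results of these data known, so these shares describe the list and are no test of it.

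**Figure D1:**
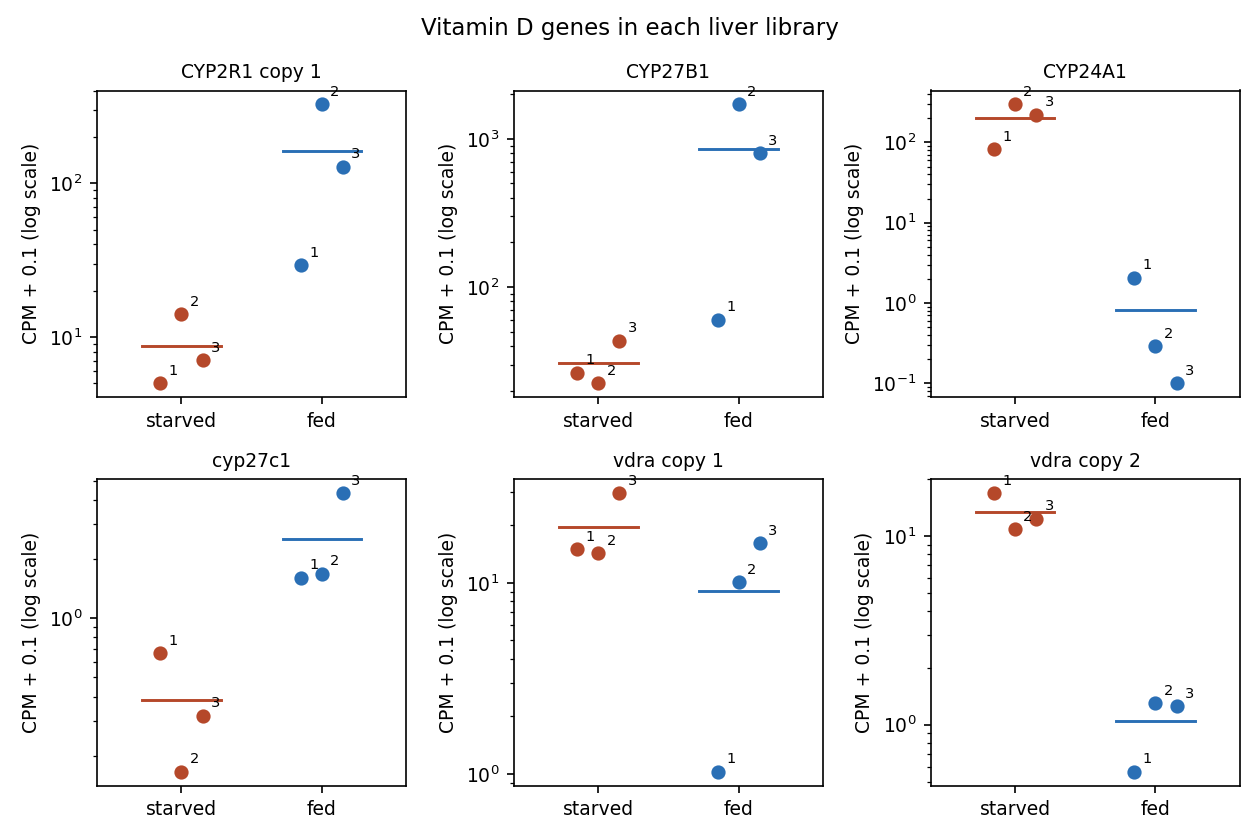
CPM + 0.1 on a log scale for the 6 tested genes in each of 3 starved and 3 fed liver libraries; points are libraries, numbered by replicate, and the horizontal line is the group mean. CYP24A1 and vdra copy 2 are higher in all 3 starved libraries than in any fed library, CYP2R1 copy 1, CYP27B1 and cyp27c1 are lower, and the groups of vdra copy 1 overlap; fed library 1 lies far below the other fed libraries for CYP27B1.

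CYP2R1 is a microsomal 25-hydroxylase, the first activating step. Copy 1 (S.schlegelii_GLEAN_10019060, coding length 1563 bases) had 69, 212 and 95 counts in the starved libraries and 252, 5144 and 1669 counts in the fed libraries. Scaled to CPM, the values were 4.89, 14.0 and 6.98 in starved liver, and 29.2, 326 and 128 in fed liver. Every starved library was below every fed library, and the lowest fed library had 2.09 times the CPM of the highest starved library. The fed libraries were spread widely, with the highest at 11.2 times the lowest. Means were 8.61 ± 4.76 CPM in starved liver and 161 ± 151 CPM in fed liver (SD, n = 3 each). CYP2R1 copy 1 was 18.7-fold lower in starved liver, with a log2 fold change of -4.23 ± 0.85 (SE) and an adjusted p of 0.0302 by edgeR. The call needed most of the libraries: without starved library 1, 2 or 3 the adjusted p was 0.137, 0.0971 or 0.140, and without fed library 2 or 3 it was 0.0657 or 0.0534. Without fed library 2 the log2 fold change was -3.18, and without fed library 1 it was -4.72 with an adjusted p of 0.0137.

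The second gene annotated as CYP2R1 (S.schlegelii_GLEAN_10000763, coding length 1068 bases) was close to silent in both groups. It had 0 counts in all 3 starved libraries, and 1, 5 and 0 counts in the fed libraries. Its 0 counts over the starved group allow up to 0.0699 CPM, taking 3 counts as the limit, and it had too few counts to be tested. The CYP2R1 transcripts counted in these livers thus came almost wholly from copy 1.

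CYP27B1 is the mitochondrial 1-alpha-hydroxylase that makes calcitriol. Its gene (S.schlegelii_GLEAN_10015718, coding length 1527 bases) had 372, 339 and 592 counts in the starved libraries and 518, 26935 and 10443 counts in the fed libraries. In CPM this was 26.3, 22.3 and 43.5 in starved liver, and 60.1, 1708 and 804 in fed liver. The starved libraries lay close together and all below the fed ones. Fed library 1 came within 1.38 times of the highest starved library and held 4.78% of the mean of fed libraries 2 and 3. Means were 30.7 ± 11.2 CPM in starved liver and 857 ± 825 CPM in fed liver (SD, n = 3 each). CYP27B1 was 27.9-fold lower in starved liver, with a log2 fold change of -4.80 ± 1.05 (SE) and an adjusted p of 0.0383 by edgeR. Without starved library 1, 2 or 3 the adjusted p was 0.167, 0.166 or 0.137, and without fed library 2 or 3 it was 0.0896 or 0.0701. Without fed library 2 the log2 fold change was -3.80, and without fed library 1 it was -5.36 with an adjusted p of 0.00267.

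Among all 19303 genes ordered by FPKM (fragments scaled to library total and to coding length, which allows levels of different genes to be set side by side), CYP27B1 stood at rank 3008, 3346 and 2026 in the starved libraries. In the fed libraries it stood at rank 1894, 100 and 223. In fed libraries 2 and 3 the activating enzyme was thus among the most abundant transcripts of the liver, and in fed library 1 it was not.

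CYP24A1 is the mitochondrial 24-hydroxylase that inactivates vitamin D. Its gene (S.schlegelii_GLEAN_10006998, coding length 1548 bases) had 1155, 4510 and 3013 counts in the starved libraries and 17, 3 and 0 counts in the fed libraries. These counts correspond to CPM of 81.8, 297 and 221 in starved liver, and 1.97, 0.190 and 0 in fed liver. All 3 starved libraries were high and all 3 fed libraries were near or at 0, with the lowest starved library at 41.5 times the highest fed one. Means were 200 ± 109 CPM in starved liver and 0.721 ± 1.09 CPM in fed liver (SD, n = 3 each). CYP24A1 was 320-fold higher in starved liver, with a log2 fold change of 8.32 ± 1.18 (SE) and an adjusted p of 0.0102 by edgeR. Its call held without each of the 6 libraries, at an adjusted p of 0.0459 or less.

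The size of that fold is set by very few fed counts. Summed over libraries, CYP24A1 had 8678 counts in starved liver and 20 in fed liver, a scaled ratio of 378 with a 95% exact interval of 245 to 619. Fed library 1 held 17 of those 20 counts. Without it the ratio was 1939, with an interval of 663 to 9404, from 3 fed counts. These intervals pool the counts of each group, so they cover counting error only and leave out variation between libraries. The reads also carry no molecular identifiers and may be copies of 1 molecule, so even the counting error may be larger.

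The gene annotated as cyp27c1 (S.schlegelii_GLEAN_10018948, coding length 1560 bases) belongs to the CYP27 family. In zebrafish its enzyme is known for converting vitamin A1 to vitamin A2, and it is included here by family. It had 8, 1 and 3 counts in the starved libraries and 13, 25 and 55 counts in the fed libraries. Its CPM was 0.567, 0.0659 and 0.220 in starved liver, and 1.51, 1.59 and 4.23 in fed liver. The groups did not overlap, at a level far below that of CYP27B1. Means were 0.284 ± 0.256 CPM in starved liver and 2.44 ± 1.55 CPM in fed liver (SD, n = 3 each). The log2 fold change was -3.08 ± 0.76 (SE) with an adjusted p of 0.0564 by edgeR, which missed the threshold. It passed without fed library 1, at an adjusted p of 0.0355, and with DESeq2, at 0.00231. Without starved library 1 the log2 fold change was -4.03, and without fed library 3 it was -2.42.

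**Figure D2:**
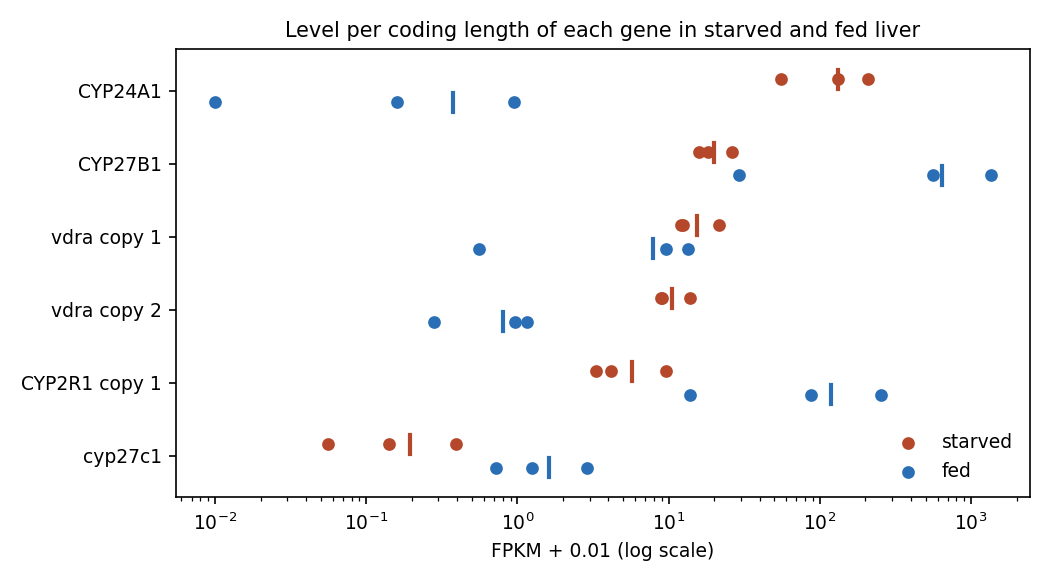
FPKM + 0.01 on a log scale for the 6 tested genes, ordered by their mean in starved liver; points are the 3 libraries of each group, starved above fed, and the short vertical line is the group mean. CYP24A1 leads in starved liver with a mean of 132 FPKM and lies lowest of these 6 genes in fed liver with 0.365 FPKM, where CYP27B1 leads with 646 FPKM.

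Ordered by mean level per coding length, CYP24A1 came first in starved liver at 132 FPKM, followed by CYP27B1 at 20.1, vdra copy 1 at 15.4, vdra copy 2 at 10.6, CYP2R1 copy 1 at 5.68 and cyp27c1 at 0.186 FPKM. From CYP27B1 down to CYP2R1 copy 1 the ranges of each neighbouring pair overlapped, while CYP24A1 lay above and cyp27c1 below without overlap. Within libraries, CYP27B1 was above vdra copy 1 in all 3 starved libraries, whereas vdra copy 1 was above copy 2, and copy 2 above CYP2R1 copy 1, in 2 of 3, so the order of those last pairs is not settled by these libraries. In fed liver CYP27B1 came first at 646 FPKM, followed by CYP2R1 copy 1 at 118, vdra copy 1 at 7.85, cyp27c1 at 1.61, vdra copy 2 at 0.788, CYP24A1 at 0.365 and CYP2R1 copy 2 at 0.147 FPKM. There the ranges of every neighbouring pair overlapped except CYP2R1 copy 1, whose lowest library had 13.9 FPKM, and vdra copy 1, whose highest had 13.5 FPKM. In fed libraries 2 and 3 alone, the only neighbours in that order whose ranges overlapped were CYP24A1 and CYP2R1 copy 2. CYP27B1, at 1354 and 556 FPKM, then lay above CYP2R1 copy 1, at 253 and 86.9 FPKM. The closest of the separated pairs was cyp27c1, at 1.23 and 2.87 FPKM, and vdra copy 2, at 1.14 and 0.955 FPKM. Within libraries, CYP27B1 was above CYP2R1 copy 1, and cyp27c1 above vdra copy 2, in all 3 fed libraries, while vdra copy 1 was above cyp27c1, and vdra copy 2 above CYP24A1, in 2 of 3, and CYP24A1 above CYP2R1 copy 2 in 1 of 3.

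The transcripts of the inactivating and the activating enzyme were also set side by side within each library; neither hormone nor enzyme activity was measured. CYP24A1 made up 75.4%, 92.9% and 83.4% of the summed FPKM of CYP24A1 and CYP27B1 in the starved libraries. The same share was 3.14%, 0.0110% and 0% in the fed libraries. The groups lay far apart, at 83.9 ± 8.8% in starved liver and 1.05 ± 1.81% in fed liver (SD, n = 3 each). An exact two-sided permutation test gave p = 0.1, the smallest that 3 libraries against 3 allow, and 0.2 after Benjamini-Hochberg adjustment over the 4 within-library measures tested. None of these 4 tests could therefore pass, and their p-values show neither a difference nor its absence. Without fed library 1 the share in fed liver was 0.0110% and 0%. The ratio of CYP27B1 to CYP2R1 copy 1 moved little beside its spread: it was 5.52, 1.64 and 6.38 in starved liver, and 2.10, 5.36 and 6.405 in fed liver. The groups of that ratio overlapped, and the exact permutation test of its log2 value gave p = 0.8, adjusted 0.8. Without fed library 1 the log2 ratio averaged 1.95 in starved liver and 2.55 in fed liver, and the groups still overlapped.

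The vitamin D receptor was represented by a pair of genes, both annotated vdra, that did not give the same result. Copy 2 (S.schlegelii_GLEAN_10003750, coding length 1278 bases) had 237, 163 and 167 counts in the starved libraries and 4, 19 and 15 counts in the fed libraries. In CPM this was 16.8, 10.7 and 12.3 in starved liver, and 0.464, 1.20 and 1.15 in fed liver. The starved libraries lay within 1.56 times of each other and the fed libraries within 2.60 times, and the lowest starved library had 8.92 times the CPM of the highest fed library. Means were 13.3 ± 3.1 CPM in starved liver and 0.941 ± 0.414 CPM in fed liver (SD, n = 3 each). Copy 2 of vdra was 13.5-fold higher in starved liver, with a log2 fold change of 3.75 ± 0.40 (SE) and an adjusted p of 0.00467 by edgeR. Its call held without each of the 6 libraries, at an adjusted p of 0.0387 or less.

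Copy 1 of vdra (S.schlegelii_GLEAN_10017529, coding length 1263 bases) had 210, 216 and 401 counts in the starved libraries and 8, 157 and 209 counts in the fed libraries. Its CPM was 14.9, 14.2 and 29.4 in starved liver, and 0.928, 9.95 and 16.1 in fed liver. Fed library 3 was above starved libraries 1 and 2, and fed library 1 held 7.13% of the mean of the other fed libraries. Means were 19.5 ± 8.6 CPM in starved liver and 8.99 ± 7.62 CPM in fed liver (SD, n = 3 each). The log2 fold change was 1.10 ± 0.75 (SE) with an adjusted p of 0.427 by edgeR, so no change was detectable. It was 0.59 without fed library 1 and 1.80 without fed library 3.

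Copy 2 made up 53.0% (95% exact interval 48.3% to 57.7%), 43.0% (38.0% to 48.2%) and 29.4% (25.7% to 33.3%) of the counts of both receptor genes in the starved libraries. In the fed libraries it made up 33.3% (9.92% to 65.1%), 10.8% (6.63% to 16.3%) and 6.70% (3.80% to 10.8%). Fed library 1 had only 12 receptor counts in all, so its share is poorly determined and reaches over the range of starved liver. The log2 ratio of copy 2 to copy 1 averaged -0.52 ± 0.72 in starved liver and -2.63 ± 1.45 in fed liver (SD, n = 3 each). The exact permutation test of that ratio gave p = 0.2, adjusted 0.27. Without fed library 1 the log2 ratio averaged -3.44 in fed liver, and fed liver, at -3.82 and -3.06, then lay below starved liver, at -1.28 to 0.16. The exact permutation p without that library was 0.1, the smallest that 3 against 2 allow. Summed over both copies, vdra stood at 31.7, 25.0 and 41.7 CPM in starved liver, and at 1.39, 11.2 and 17.2 CPM in fed liver. The groups did not overlap, with or without fed library 1. With all libraries the group means were 32.8 CPM in starved liver and 9.93 CPM in fed liver. The exact permutation p was then 0.1, adjusted 0.2. Without fed library 1 the fed mean was 14.2 CPM, and the exact permutation p was 0.2, adjusted 0.27. No source used here says how reads shared by the copies were assigned, so their separate values carry that uncertainty.

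**Figure D3:**
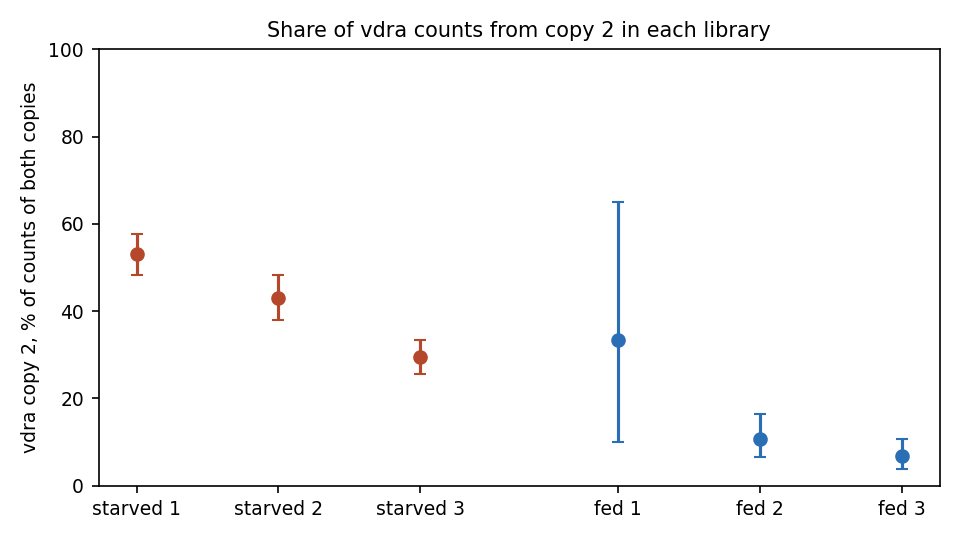
Share of vdra counts that came from copy 2 in each of 3 starved and 3 fed libraries, in percent; bars are 95% exact binomial intervals, which cover counting error only. The starved libraries lie between 29.4% and 53.0%, fed libraries 2 and 3 at 10.8% and 6.70%, and fed library 1, with 12 counts, has an interval of 9.92% to 65.1%.

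The authors' deposited table, which compares the same groups, lists CYP24A1 at 284-fold higher in starved liver with a q of 1.11e-05. The authors' deposited table gives vdra copy 2 at 13.7-fold higher with a q of 2.38e-14. It lists CYP2R1 copy 1 at 18.6-fold lower, CYP27B1 at 27.6-fold lower and cyp27c1 at 8.61-fold lower, with q-values of 2.91e-07, 2.16e-07 and 0.00513 in the authors' deposited table. For vdra copy 1 the authors' deposited table has a fold of 2.19 and a q of 0.406. Under a q of 0.05 that table holds 5 of the 6 tested members and 9.49% of its genes.

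**Figure D4:**
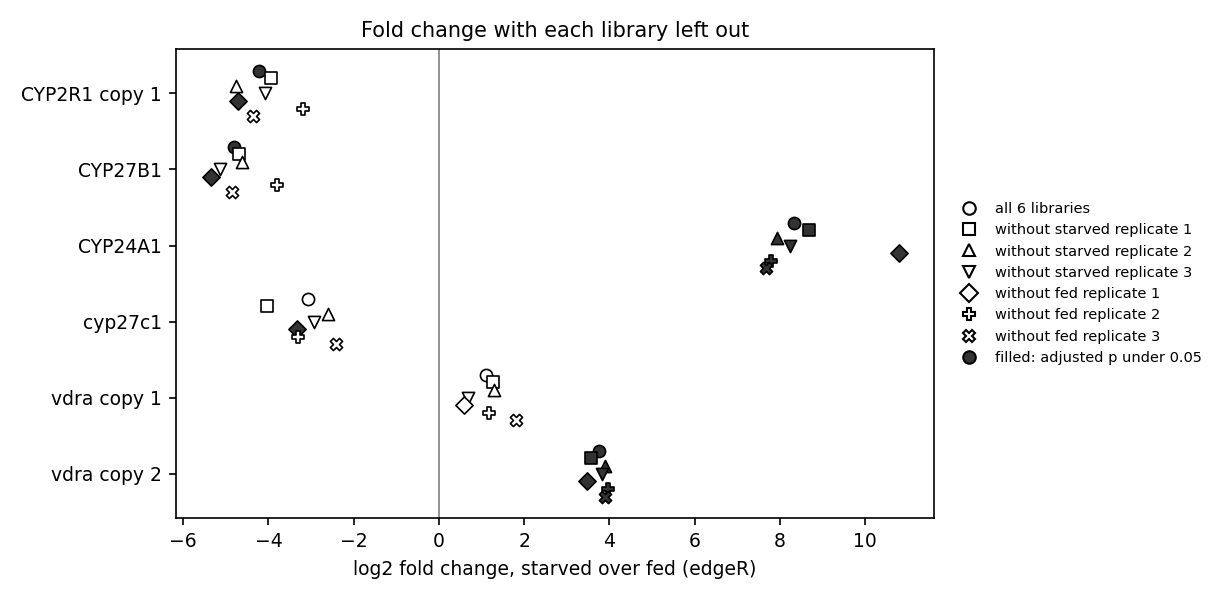
Log2 fold change, starved over fed, from edgeR for the 6 tested genes with all libraries and with each library left out in turn; filled symbols have an adjusted p under 0.05. CYP24A1 and vdra copy 2 stay filled throughout, CYP2R1 copy 1 and CYP27B1 stay filled only without fed replicate 1, and cyp27c1 passes only without fed replicate 1.

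Leaving out fed library 1 gave 5 of the 6 members as called, against 12.3% of all tested genes in that fit. Leaving out any other library gave 2, CYP24A1 and vdra copy 2, against 0.742%, 1.07% and 0.951% of all tested genes without starved library 1, 2 or 3, and 1.69% and 3.4% without fed library 2 or 3. No left-out library turned the direction of a member.

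Over the 6 libraries the members followed each other in log2 CPM as follows, given as a description with no test, since all libraries are shared and both groups are in them. Pearson's r between CYP27B1 and CYP2R1 copy 1 was 0.948. CYP24A1 ran opposite to both, with r of -0.891 to CYP27B1 and -0.895 to CYP2R1 copy 1, and opposite to cyp27c1 with r of -0.953. Copy 2 of vdra had r of 0.875 with CYP24A1, and the receptor copies had r of 0.702 with each other. Copy 1 of vdra had r of 0.0159 with CYP27B1.

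For each called member, the tested genes of at least 3 mean log2 CPM with the most similar profile were looked up among 6874 or 6875 candidates. With so few libraries and so many candidates, values of r this high are a ranking only. CYP24A1 was most like SLC38A3 (a glutamine transporter, r = 0.996), ETNK1 (ethanolamine kinase, 0.995), FAM13A (0.995), C15orf39 (0.991) and CSNK1E (casein kinase 1 epsilon, 0.989). CYP2R1 copy 1 was most like vangl2 (a planar polarity protein, r = 0.992), Arhgap35 (0.991), tbx2b (a T-box transcription factor, 0.990), TRIM44 (0.989) and igf2 (insulin-like growth factor 2, 0.988). CYP27B1 was most like FOSL2 (a Fos family transcription factor, r = 0.993), Ngef (0.990), tmem263 (0.989), rhot2 (0.988) and ppp1r37 (0.988). Copy 2 of vdra was most like CHD7 (a chromatin remodeller, r = 0.997), TSC22D1 (0.995), ELMSAN1 (0.995), EVI5 (0.995) and slc25a42 (a mitochondrial coenzyme A transporter, 0.994).

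Other genes of the pathway were read from 6 lists. Of the 65 genes tested in these lists of other vitamin D, calcium and phosphate genes, 3 were higher and 2 lower. That is 7.69%, beside 5.16% over all tested genes, which is near the background. The median log2 fold change of each list lay between -0.42 and 0.31, beside -0.03 over all tested genes.

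**Figure D5:**
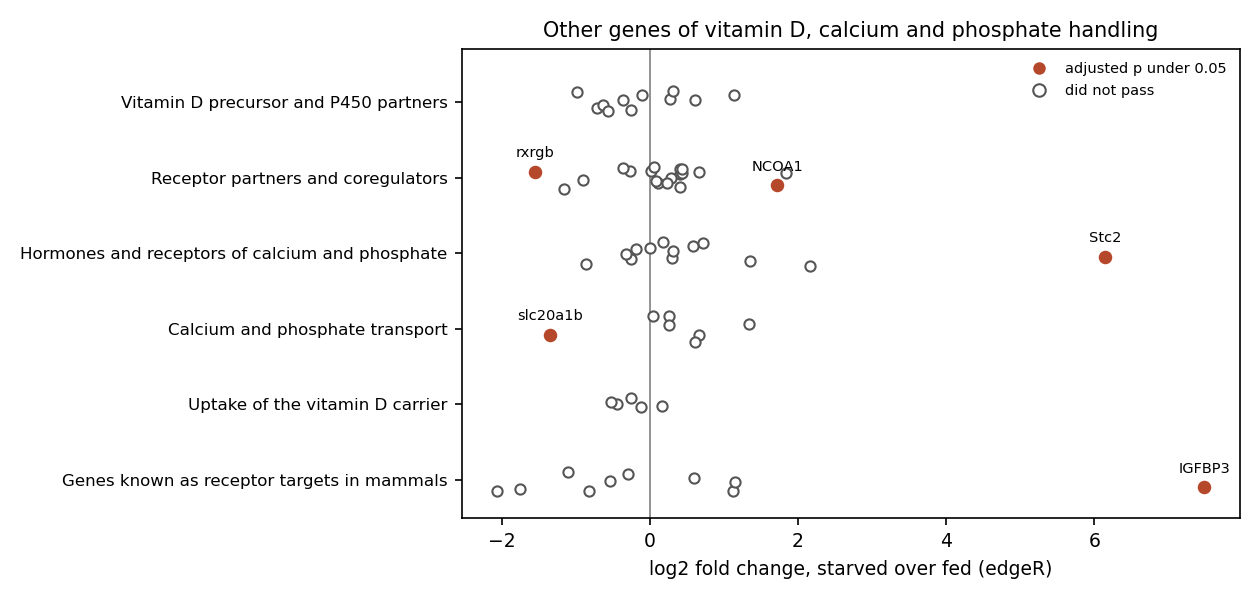
Log2 fold change, starved over fed, from edgeR for every tested gene of the 6 lists; filled points have an adjusted p under 0.05 and are named, and vertical scatter only separates the points. Most genes lie near 0; Stc2 stands at 6.15, and the point of IGFBP3 depends on the fit, since it had no counts in fed liver.

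The first list held enzymes that make or use the vitamin D precursor, electron donors and related P450 enzymes. Of its 14 genes 11 were tested, and 0 passed, 1 having an unadjusted p under 0.05. DESeq2 passed 1 and limma-voom 0. Its most abundant genes were cyp3a40, a CYP3A enzyme of a family that in mammals also breaks down vitamin D, cyp3a27 of the same family, and POR, which passes electrons to microsomal P450 enzymes such as CYP2R1. cyp3a40 averaged 944 ± 44 CPM in starved liver and 428 ± 20 CPM in fed liver (SD, n = 3 each), without overlap. Its log2 fold change was 1.14 ± 0.28 (SE) with an adjusted p of 0.0595 by edgeR. cyp3a27 averaged 131 ± 53 CPM in starved liver and 194 ± 21 CPM in fed liver, and POR 159 ± 7 and 129 ± 33 CPM. The median log2 fold change of the list was -0.25.

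Of 19 receptor partners and coregulators, all tested, 1 was higher and 1 lower, with a median log2 fold change of 0.23. rxrgb, a retinoid X receptor of the family that pairs with the vitamin D receptor on DNA, had 43.1, 52.9 and 43.1 CPM in starved liver, and 100.1, 149.7 and 158 CPM in fed liver. It was 2.93-fold lower in starved liver, with a log2 fold change of -1.55 ± 0.28 (SE) and an adjusted p of 0.0224 by edgeR. NCOA1, a coactivator of nuclear receptors, had 17.99, 17.8 and 22.3 CPM in starved liver, and 2.55, 6.85 and 8.004 CPM in fed liver. It was 3.30-fold higher in starved liver, with a log2 fold change of 1.72 ± 0.40 (SE) and an adjusted p of 0.0469 by edgeR. Neither call survived the loss of a starved library or of fed library 2 or 3, with adjusted p up to 0.137 for rxrgb and 0.175 for NCOA1. The corepressor Ncor1 averaged 239 ± 156 CPM in starved liver and 447 ± 342 CPM in fed liver and did not pass. The coactivator EP300 averaged 61.1 ± 11.1 CPM in starved liver and 52.1 ± 16.1 CPM in fed liver and did not pass.

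Of 18 hormones and hormone receptors of calcium and phosphate, 13 were tested. Stc2, which encodes stanniocalcin 2 of the family known in fish for lowering blood calcium, was higher, and 0 were lower, where 0 also had an unadjusted p under 0.05 and DESeq2 passed 0 as lower. Stc2 had 406, 461 and 165 counts in the starved libraries and 3, 3 and 6 counts in the fed libraries. Its CPM was 28.8, 30.4 and 12.1 in starved liver, and 0.348, 0.190 and 0.462 in fed liver, so that every starved library was far above every fed one. It was 71.0-fold higher, with a log2 fold change of 6.15 ± 0.53 (SE) and an adjusted p of 0.00239 by edgeR. A second gene annotated Stc2 had 1.12 ± 0.11 CPM in starved liver and 2.07 ± 0.47 CPM in fed liver, a log2 fold change of -0.87 with an adjusted p of 0.244. Kl, which encodes klotho, the coreceptor for a phosphate hormone, averaged 226 ± 84 CPM in starved liver and 138 ± 81 CPM in fed liver and did not pass. The receptors fgfr2 and fgfr4 averaged 166 ± 48 and 79.4 ± 28.3 CPM in starved liver, and 110 ± 6 and 79.3 ± 42.2 CPM in fed liver, and neither passed. The list's median log2 fold change was 0.31.

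Of 15 calcium and phosphate transport genes, 7 were tested and 1 was lower. slc20a1b, a sodium-phosphate cotransporter, had 19.5, 14.4 and 16.7 CPM in starved liver, and 38.4, 36.8 and 53.3 CPM in fed liver. It was 2.54-fold lower in starved liver, with a log2 fold change of -1.34 ± 0.26 (SE) and an adjusted p of 0.0253 by edgeR. The call was lost when a starved library, fed library 2 or fed library 3 was dropped, with adjusted p up to 0.139. The plasma membrane calcium pumps ATP2B4 and ATP2B1 averaged 52.3 ± 5.0 and 39.9 ± 6.2 CPM in starved liver, and 32.9 ± 14.0 and 33.4 ± 11.6 CPM in fed liver. The phosphate transporter slc20a2 averaged 36.5 ± 8.5 CPM in starved liver and 23.8 ± 11.04 CPM in fed liver, and none of these 3 passed. The list's median log2 fold change was 0.26.

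Of 7 genes for uptake of the vitamin D carrier, 5 were tested and 0 passed. Of these, 0 had an unadjusted p under 0.05, and DESeq2 and limma-voom passed 0. The adaptor Dab2 averaged 92.8 ± 16.7 CPM in starved liver and 110 ± 34 CPM in fed liver. LRPAP1, a chaperone of the uptake receptors, averaged 14.3 ± 3.6 CPM in starved liver and 12.7 ± 5.7 CPM in fed liver. A second gene annotated DAB2 averaged 1.63 ± 0.60 CPM in starved liver and 2.37 ± 0.91 CPM in fed liver. The list's median log2 fold change was -0.25.

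Of 18 genes known as receptor targets in mammals, 10 were tested, 1 was higher and 0 were lower, where 3 had an unadjusted p under 0.05 as lower and DESeq2 passed 2 as lower. IGFBP3, a carrier of insulin-like growth factors, had 11, 47 and 15 counts in the starved libraries and 0 counts in every fed library. Set against 3 counts over the fed group, its summed starved counts, scaled to library size, were 21.2-fold higher. That bound covers counting error of the fed group only, and starved library 2 held 47 of the 73 starved counts. The adjusted p of IGFBP3 was 0.0330 by edgeR. Its call too failed once a starved library, fed library 2 or fed library 3 was dropped, with adjusted p up to 0.114. A second gene annotated IGFBP3 had 2, 2 and 1 counts in starved liver and 4, 2 and 1 counts in fed liver, too few to be tested. FBP1, the gluconeogenic enzyme fructose-1,6-bisphosphatase, averaged 1187 ± 69 CPM in starved liver and 534 ± 266 CPM in fed liver, with an adjusted p of 0.139 by edgeR. G0s2, an inhibitor of fat breakdown, averaged 124 ± 71 CPM in starved liver and 416 ± 241 CPM in fed liver, and TXNIP 197 ± 85 and 90.5 ± 83.5 CPM; neither passed. The list's median log2 fold change was -0.42. Setting IGFBP3 to its bound could not move that median, since IGFBP3 stays the highest of the 10 tested genes.

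Because CYP27B1 and CYP24A1 are known in mammals mainly from kidney, kidney markers were read in the same libraries. Of 16 matched kidney genes 1 was tested and 0 passed. That gene, SLC22A6 (an organic anion transporter), had 424, 517 and 298 counts in starved liver and 127, 235 and 186 counts in fed liver, an unadjusted p of 0.00386 and an adjusted p of 0.0613 by edgeR; DESeq2 passed it and limma-voom did not. Of the 16 kidney genes, 14 had at most 20 counts in every library, the exceptions being SLC22A6 and SLC12A1, and the highest of the others, a uromodulin gene (UMOD), had 20, 9 and 0 counts in starved liver and 14, 7 and 0 counts in fed liver. SLC12A1, the salt transporter of the kidney tubule, had 0, 12 and 0 counts in starved liver and 0, 48 and 0 counts in fed liver. Nphs1, which encodes nephrin of the kidney filter, had 0 counts in every library but fed library 2, which had 1. Fed library 2, with the most CYP27B1, also held the 48 SLC12A1 counts, while fed library 3 had 804 CPM of CYP27B1 and 0 SLC12A1 counts. Starved library 2, with the most CYP24A1 at 297 CPM, held the 12 SLC12A1 counts of starved liver. Starved library 3 had 221 CPM of CYP24A1 and 0 SLC12A1 counts. The kidney list summed to between 22.7 and 37.1 CPM in starved liver and between 16.5 and 20.4 CPM in fed liver, without overlap. Most of that sum came from the tested SLC22A6 gene in every library. SLC22A6 averaged 28.7 ± 6.21 CPM in starved liver and 14.6 ± 0.301 CPM in fed liver (SD, n = 3 each). The gap between these sums therefore does not show that kidney genes as a set were higher in starved liver. The part of the kidney list in the results was not tested.

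The sums of some other cell type markers also did not overlap between groups, as was so for 31.1% of single genes among all tested genes. Stellate cell and fibroblast markers summed to between 60.7 and 84.5 CPM in starved liver and between 279 and 439 CPM in fed liver. Of their 4 tested genes 3 were lower, beside 2.98% of all tested genes. Endothelial markers summed to between 105 and 125 CPM in starved liver and between 55.9 and 85.7 CPM in fed liver. Bile duct markers summed to between 956 and 1453 CPM in starved liver and between 1553 and 2576 CPM in fed liver. Islet markers summed to between 0.264 and 1.17 CPM in starved liver and between 1.52 and 1.86 CPM in fed liver. Of 6 tested endothelial genes and 5 tested bile duct genes 0 passed by edgeR, with 1 of each at an unadjusted p under 0.05. The 5 islet genes had too few counts, and 0 were tested. The part of these cell types in the results above was not tested. Among red cell markers 1 of 8 tested genes was lower, a beta globin gene annotated hbb2. It averaged 1.24 ± 1.28 CPM in starved liver and 22.6 ± 15.1 CPM in fed liver (SD, n = 3 each), with an adjusted p of 0.0305 by edgeR. A second, more abundant gene annotated hbb2 averaged 235 ± 234 CPM in starved liver and 459 ± 222 CPM in fed liver. This second gene did not pass, with an adjusted p of 0.476 by edgeR. The sums overlapped between groups for markers of macrophages, of red cells, of lymphocytes, of pancreatic acinar cells and of intestine.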

How the data were processed

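Total RNA of whole liver was sequenced as strand-marked, poly(A)-selected paired-end libraries, per the labels' protocols. The submitters' processing notes name HTSeq, HISAT2, Trimmomatic and Cufflinks; versions, roles and genome build are not given in these sources. The count table deposited by the authors holds raw whole-number counts. The FPKM table deposited by the authors equals those counts over the library total and a coding length, and for 19302 of 19303 genes the implied length was a multiple of 3 (tolerance 0.01 bases). The comparison deposited by the authors lists for each gene a q-value and a ratio (fold, starved over fed) from an unnamed test; the sign of its log matched that of the FPKM ratio for 96.8% of genes. The deposited mapping table gives a count of reads by alignment class. Libraries were grouped by title.

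Counts were tested with edgeR 4.0.16 (R 4.3.3): filterByExpr at its defaults, TMM scaling, robust quasi-likelihood F test, starved minus fed, Benjamini-Hochberg adjustment over 13338 genes, calls at an adjusted p under 0.05. SEs are the log2 fold change over the square root of F. CPM values use the TMM factors. A count of 0 was bounded by 3 counts over the group. The scripts were tested on simulated data. Alternatives used DESeq2 1.42.0, limma 3.58.1 (voom, and log2 FPKM with a pseudocount of 1 or 0.1), other scalings and filters, and each library left out; those combining a left-out fed library 1 with another tool were chosen after seeing the data. Between libraries of a group the counts gave a chi-square of at least 36.2 for each degree of freedom. No library is therefore a plain resequencing of another, but separate preparations of the same liver cannot be told from separate fish this way.

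Members and lists were chosen with earlier results of these data known. Named genes are every member, every called gene and the 3 most abundant uncalled genes of each list, and the 5 genes most like each called member; 1 gene this rule took is not reported here.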

Additional observations from a re-analysis of the deposited data

How the results depend on the processing

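CYP24A1 and vdra copy 2 stayed past the threshold, in the same direction, in all 17 alternatives; the log2 fold change ran from 6.47 to 10.80 for CYP24A1 and from 2.70 to 3.97 for vdra copy 2. CYP2R1 copy 1 passed in 9 of 17 and CYP27B1 in 8 of 17, with adjusted p up to 0.140 and 0.167, cyp27c1 in 4 and vdra copy 1 in 0. The cause of these losses was not tested. Leaving out a library also lowers the number of samples. Without libraries left out, CYP27B1 lost its call with limma-voom (adjusted p 0.0693), no low-count filter (0.0767) and log2 FPKM with a pseudocount of 1 (0.121) or 0.1 (0.141), and CYP2R1 copy 1 with no filter (0.0559) and both FPKM fits (0.0691 and 0.0769). The number of members called, 4, was 2 with limma on log2 FPKM with either pseudocount, 1 at an adjusted p under 0.01, and 2 to 5 with a library left out. Over all genes 688 were called, 1655 with DESeq2, 1951 with limma-voom quality weights, 110 at an adjusted p under 0.01, 102 to 1704 with a library left out, and 2315 (DESeq2) or 1519 (limma-voom) without fed replicate 1, both chosen after seeing the data. No alternative reversed any of the 6 tested members or the 5 called genes of the lists; other named genes were not rerun. Stc2 passed in all 17 alternatives, rxrgb, NCOA1 and slc20a1b in 10 each and not on FPKM, and IGFBP3 in 11 of 16. No scaling moved the median of all genes by over 0.1. Depth limits CYP2R1 copy 2, cyp27c1 and the fed values of CYP24A1. No paired analysis was possible because the title codes of the groups share 1 letter only and the replicate numbers were given in accession order.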

Other observations

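Outside the members and the 6 lists, 27 genes carry a vitamin D term in the deposited gene ontology annotation, a list taken after seeing the files. Of these, 16 were tested and 0 passed by edgeR, where 4 had an unadjusted p under 0.05, 3 of them lower, and DESeq2 passed 3 as lower. The median log2 fold change was -0.30, beside -0.03 over all tested genes. Several of the 16 tested genes are separate genes that share the annotation Trim25, so the count and the median lean on that name. The gene annotated stc (stanniocalcin), which the rule for members leaves out and which was looked at after its values were seen, had 22, 16 and 15 counts in starved liver and 0, 13 and 12 counts in fed liver. Its adjusted p was 0.495 by edgeR, so no change was detectable.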
